A study of Homo sapiens with 6 samples.

Results

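*CDX1*, *CDX2*, *HNF4A*, *HNF4G*, *KLF5*, *GATA6*, *ELF3* and *PROX1* encode transcription factors that establish or hold the identity of the intestinal epithelium. They were taken by symbol from the deposited expression table, where 8 of the 63241 listed genes carry these symbols. The table holds 6 RNA-seq libraries from wild-type HT-29 cells, an established human colorectal adenocarcinoma line, in 2 groups of 3. Control cells received the buffer alone. Treated cells, called Amuc_0904 here, received 0.5 μM of the outer membrane protein Amuc_0904 of the gut bacterium *Akkermansia muciniphila*, and both groups were kept for 72 h. The series was made to examine goblet cell differentiation, and the comparison below asks where the factors of intestinal identity stood in these cells and whether they differed between the groups. Values are TPM, a measure of transcript abundance corrected for transcript length, so that genes can be set side by side within a library.

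In the vertebrate gut, the homeobox factors CDX1 and CDX2 give posterior endoderm its intestinal fate, and loss of CDX2 lets foregut and squamous programmes appear. The nuclear receptors HNF4A and HNF4G are close relatives that bind the enhancers of enterocyte genes and act redundantly in the villus. GATA6 is a zinc finger factor of crypts and villi, KLF5 is a zinc finger factor of dividing crypt cells, and ELF3 is an ETS factor of epithelia whose transcription responds to inflammatory signals. PROX1 is a homeobox factor of endocrine progenitors, and in colorectal tumours it is known as a target of Wnt signalling.

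The factors fell into levels far apart (the plot of TPM by factor and library). *KLF5* and *ELF3* were the most abundant, at ranks 588 and 728 of all listed genes by control mean. *HNF4G*, *HNF4A* and *GATA6* followed at ranks 5020, 6935 and 8594. *PROX1*, *CDX2* and *CDX1* stood at ranks 14057, 14122 and 15199, close to the detection filter. In both groups the order ran *KLF5*, *ELF3*, *HNF4G*, *HNF4A*, *GATA6*, and the ranges over 3 libraries of neighbours in that order did not overlap. The 3 lowest factors had no fixed order. The range of *CDX2* overlapped those of both *PROX1* and *CDX1*, while *PROX1* lay above *CDX1* without overlap in Control and overlapped it in Amuc_0904. Summed TPM of the 8 factors ran from 415.6 to 440.4 over the 6 libraries, and *KLF5* and *ELF3* together made up 87.6% to 88.8% of it in each.

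**Figure D1:**
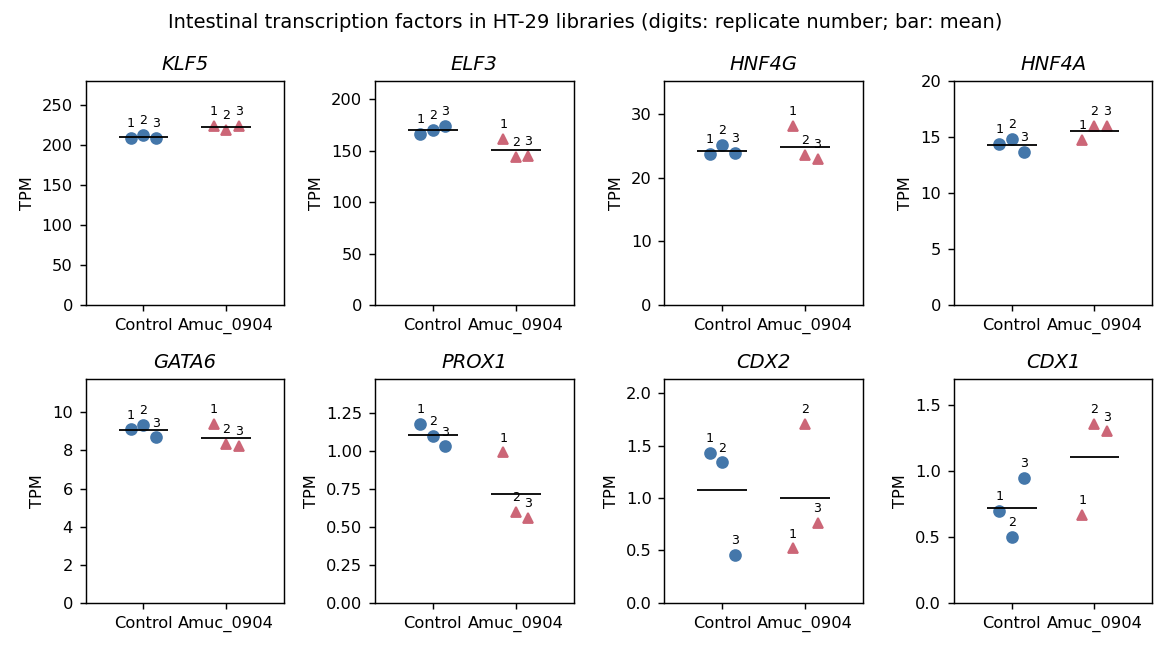
TPM of each of the 8 factors (vertical axes, each from 0) in the 3 Control libraries (circles) and the 3 Amuc_0904 libraries (triangles), with the replicate number at each point and a bar at the group mean. *KLF5* lay higher and *ELF3* and *PROX1* lay lower in each Amuc_0904 library than in any Control library, and Amuc_0904 replicate 1 was the nearest of its group to the controls for *ELF3* and *PROX1*.

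A gene was tested when it reached 1 TPM in at least 3 libraries, and 7 of the 8 factors did. *CDX1* reached 1 TPM in 2 libraries and was not tested. *PROX1* passed through its 3 controls only, so that a lower Amuc_0904 level was built into its passing, and its values are given as a description. Differences are log2 fold changes of TPM + 1, Amuc_0904 over Control, from limma with p values adjusted over all 14333 tested genes and a threshold of 0.05. Neither the labels nor the paper say whether replicates were separate cultures, so a p value measures only the spread between these libraries. Over all tested genes 0.0698% were called higher and 0.167% lower, and of the 7 factors 0 were called in either direction. At an unadjusted p under 0.05, 1 of the 7 (*ELF3*) was lower and 0 were higher, beside 5.87% of all tested genes lower and 9.95% higher.

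Amuc_0904 replicate 1 stood apart from the other treated libraries over the whole table. On the first principal component, which held 35.5% of the variance, it scored −4.79, with the controls between −13.04 and −12.42 and the other treated libraries at 20.4 and 22.8. The share of TPM on the mitochondrial genome was 12.8% to 13.5% in the controls, 12.95% in this library and 10.6% and 11.1% in the other treated libraries. The differences of the tested factors are therefore also given without it, and companion genes that passed the threshold without it are named. In that fit 9.34% of all tested genes were called higher and 8.85% lower, against 0.0698% and 0.167% with all 6 libraries. The library was picked for lying near the controls, so leaving it out tends to widen differences and lower p values. The p values of that fit are a description and not a separate test. What sets this library apart was not tested.

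*ELF3* was the factor with the smallest p. Its TPM was 166.73, 170.26 and 174.17 in Control and 161.49, 144.36 and 144.95 in Amuc_0904 replicates 1, 2 and 3. Every Amuc_0904 library lay below every Control library, and replicates 2 and 3 lay lowest. The means were 170.4 ± 3.72 (SD, n = 3) and 150.3 ± 9.72 (SD, n = 3), a log2 fold change of −0.18 (SE 0.058, 95% interval −0.32 to −0.047), or 0.882-fold. The limma adjusted p was 0.249, so *ELF3* was not called with all 6 libraries. Without Amuc_0904 replicate 1 the log2 fold change was −0.23 (95% interval −0.31 to −0.16) at an adjusted p of 0.00597, and *ELF3* passed the threshold. It also passed when limma weighted each library by its own spread, at an adjusted p of 0.0145, and in none of the other alternatives. That weighting gave Amuc_0904 replicate 1 a weight of 0.224 and the other libraries 1.26 to 1.49. It thus came close to leaving that library out, and its p value is likewise a description and not a separate test. In bulk RNA, fewer cells with a transcript and less transcript per cell cannot be told apart.

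**Figure D2:**
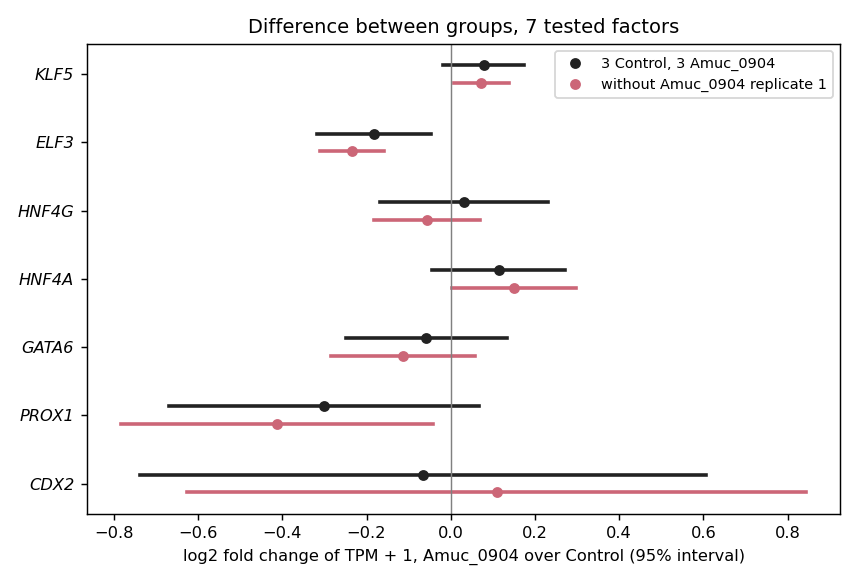
Log2 fold change of TPM + 1, Amuc_0904 over Control (horizontal axis), with 95% intervals for the 7 tested factors, from all 6 libraries (black) and without Amuc_0904 replicate 1 (red). With all libraries the interval of *ELF3*, −0.32 to −0.047, was the only one that left out 0. *PROX1* is shown as a description, as the filter fixed its sign.

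The window of 250 bases before the *ELF3* transcription start held an NF-κB motif, and its sequence is shown because the factor is known to respond to inflammatory signals. Promoters were read from RefSeq on GRCh38.p14, whose table gave 7 promoters for 5 of the 8 factors, and 7 short motifs were searched on both strands. The NF-κB letters GGGANTTCC, capital in the sequence below as their reverse complement GGAAATCCC at bases −88 to −80 from the start, occurred in 1.59% of 35116 RefSeq promoter windows of the same length. The window is chr1:202010337-202010586 on the plus strand. A match is a stretch of letters, and binding was not measured.

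ELF3: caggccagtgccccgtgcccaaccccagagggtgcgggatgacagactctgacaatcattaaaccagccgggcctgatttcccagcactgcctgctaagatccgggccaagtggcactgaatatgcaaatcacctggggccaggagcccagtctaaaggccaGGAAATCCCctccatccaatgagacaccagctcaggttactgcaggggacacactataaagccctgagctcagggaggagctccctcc

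*KLF5* had the narrowest interval of the 7. Its TPM was 209.45, 213.51 and 209.56 in Control and 224.42, 219.67 and 223.89 in Amuc_0904. Every Amuc_0904 library lay above every Control library, and replicate 1 was the highest of all. The means were 210.8 ± 2.31 and 222.7 ± 2.60 TPM (SD, n = 3 each). The log2 fold change was 0.078 (SE 0.041, 95% interval −0.018 to 0.17) with a limma adjusted p of 0.396. Its interval allows a fold of TPM + 1 between 0.988 and 1.13. It was 0.073 without Amuc_0904 replicate 1, at an adjusted p of 0.116. Neither of the 2 *KLF5* promoter windows in the RefSeq table, whose starts lie 4029 bases apart, held any of the 7 motifs.

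*PROX1* aside, whose place below the controls followed from the filter, groups that did not overlap were found for *KLF5* above the controls and *ELF3* below them. Over all tested genes 13.4% lay above in this way and 7.59% below. The ratio of *ELF3* to *KLF5* TPM was 0.796, 0.797 and 0.831 in Control and 0.720, 0.657 and 0.647 in Amuc_0904, so that the groups did not overlap. Its mean was 0.808 ± 0.0199 (SD, n = 3) in Control and 0.675 ± 0.0392 (SD, n = 3) in Amuc_0904. A ratio inside a library does not depend on how that library was scaled. The ratios here were picked after the values were seen, and no test was run on them.

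**Figure D3:**
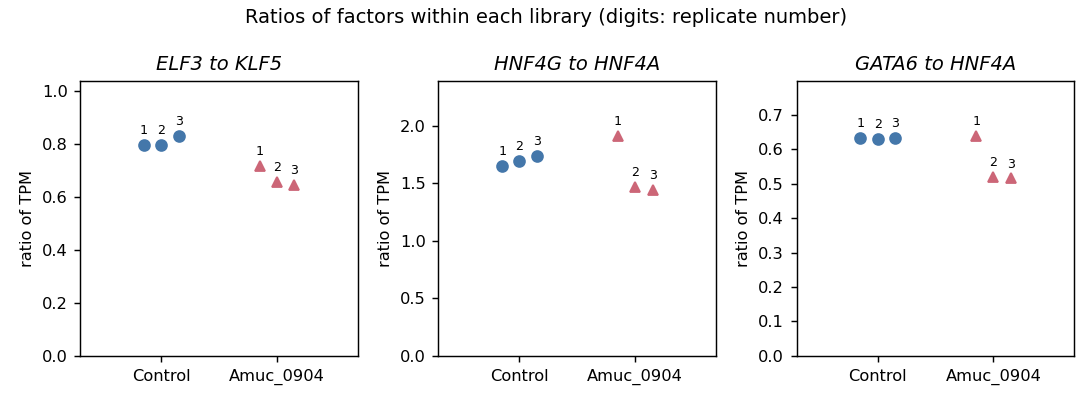
Ratio of TPM (vertical axes, from 0) of *ELF3* to *KLF5*, *HNF4G* to *HNF4A* and *GATA6* to *HNF4A* in each Control (circles) and Amuc_0904 (triangles) library, with replicate numbers. In the last 2 panels Amuc_0904 replicate 1 lay above the controls and replicates 2 and 3 below them, while *ELF3* to *KLF5* was lower in each Amuc_0904 library.

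Of the nuclear receptors, *HNF4G* was the more abundant in every library. *HNF4A* measured 14.39, 14.84 and 13.71 TPM in Control and 14.73, 16.00 and 15.98 TPM in Amuc_0904. Replicates 2 and 3 of Amuc_0904 lay above the controls and replicate 1 lay among them. The means were 14.3 ± 0.569 and 15.6 ± 0.728 TPM (SD, n = 3 each). Its log2 fold change was 0.11 (95% interval −0.045 to 0.27) at a limma adjusted p of 0.446, and 0.15 at an adjusted p of 0.141 without Amuc_0904 replicate 1.

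*HNF4G* measured 23.74, 25.13 and 23.82 TPM in Control and 28.12, 23.52 and 22.98 TPM in Amuc_0904. Replicate 1 of Amuc_0904 was the highest of the 6 libraries and the other treated libraries were the lowest. The log2 fold change was 0.031 (95% interval −0.17 to 0.23, adjusted p = 0.886 by limma) with all libraries and −0.057 (adjusted p = 0.490) without Amuc_0904 replicate 1, so its sign rested on that library. The ratio of *HNF4G* to *HNF4A* was 1.65, 1.69 and 1.74 in Control and 1.91, 1.47 and 1.44 in Amuc_0904. Treated replicates thus lay on both sides of the controls.

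*HNF4A* is transcribed from an upstream promoter known as P2 and from a downstream promoter known as P1. TPM sums the transcripts of the gene, and the table does not tell them apart. The starts lie 45540 bases apart on the plus strand. The upstream window, chr20:44355449-44355698, is shown because it held the GATA letters AGATAA at −26 to −21, in capitals, which 9.17% of all windows held on either strand. The downstream window, chr20:44400989-44401238, held none of the motifs searched.

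HNF4A upstream: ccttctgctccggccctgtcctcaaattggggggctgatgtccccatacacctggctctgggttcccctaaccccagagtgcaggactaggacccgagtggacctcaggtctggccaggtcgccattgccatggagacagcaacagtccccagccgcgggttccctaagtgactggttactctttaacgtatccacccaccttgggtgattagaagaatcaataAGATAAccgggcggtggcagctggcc

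Among GATA factors, *GATA2*, known from blood and endothelial cells, was the most abundant at 119.1 ± 3.62 TPM in Control, *GATA4* was listed at 0 in all 6 libraries, and *GATA6* lay between them.

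*GATA6* measured 9.10, 9.36 and 8.68 TPM in Control and 9.41, 8.33 and 8.24 TPM in Amuc_0904. Replicate 1 of Amuc_0904 was the highest library and replicates 2 and 3 were the lowest. The means were 9.05 ± 0.343 and 8.66 ± 0.651 TPM (SD, n = 3 each), a log2 fold change of −0.058 (95% interval −0.25 to 0.13, adjusted p = 0.761 by limma). With that library left out it was −0.11 at an adjusted p of 0.314. The ratio of *GATA6* to *HNF4A* was 0.632, 0.631 and 0.633 in Control and 0.639, 0.521 and 0.516 in Amuc_0904. The 3 controls were almost equal, replicate 1 of Amuc_0904 was just above them and the other treated libraries lay below. The single *GATA6* promoter window held none of the 7 motifs.

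The caudal factors were barely expressed. *CDX2* measured 1.43, 1.34 and 0.46 TPM in Control and 0.52, 1.71 and 0.76 TPM in Amuc_0904. Its spread within each group, 1.08 ± 0.536 and 0.997 ± 0.629 TPM (SD, n = 3 each), was larger than the distance between the means. The log2 fold change was −0.065 with a 95% interval of −0.74 to 0.61 (adjusted p = 0.933 by limma). That interval allows a fold of TPM + 1 between 0.600 and 1.52, and at this level the fold of TPM itself can be larger in either direction. When Amuc_0904 replicate 1 was left out its sign turned, at 0.11 (adjusted p = 0.838). *CDX1* measured 0.70, 0.50 and 0.95 TPM in Control and 0.67, 1.36 and 1.30 TPM in Amuc_0904. Replicates 2 and 3 of Amuc_0904 were the highest and replicate 1 lay among the controls, with means of 0.717 ± 0.226 and 1.11 ± 0.382 (SD, n = 3 each). In a fit with no filter on low values its log2 fold change was 0.29 (95% interval −0.16 to 0.73, adjusted p = 0.694 by limma). At these levels a difference of the size of the spread was not detectable, and the reads behind each value are unknown.

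CDX2 is known to bind its own gene, and the *CDX2* window, chr13:27969316-27969565 on the minus strand, is shown for that. It held the CDX letters TTTATTG as CAATAAA at −181 to −175, the GATA letters AGATAA as TTATCT at −119 to −114 and the ETS letters AGGAAG at −194 to −189. Of all windows 3.66% held the CDX letters and 28.7% the ETS letters. The motifs of HNF4 (CAAAGTCC, in 1.02% of windows), KLF (GGGTGTG, 6.63%) and TCF/LEF (CTTTGAT, 2.26%) matched in none of the 7 windows.

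CDX2: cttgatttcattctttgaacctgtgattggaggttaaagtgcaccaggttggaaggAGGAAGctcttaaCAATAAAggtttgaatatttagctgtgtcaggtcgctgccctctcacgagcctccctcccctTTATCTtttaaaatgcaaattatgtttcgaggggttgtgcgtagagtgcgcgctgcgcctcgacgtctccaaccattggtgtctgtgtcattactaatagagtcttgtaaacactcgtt

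*PROX1* measured 1.18, 1.10 and 1.03 TPM in Control and 0.99, 0.60 and 0.56 TPM in Amuc_0904. Each Amuc_0904 library lay below each control, replicate 1 only just. The means were 1.10 ± 0.0751 and 0.717 ± 0.238 TPM (SD, n = 3 each). The log2 fold change was −0.30, and −0.41 without Amuc_0904 replicate 1. Without *PROX1*, whose sign the filter fixed, 3 of the tested factors had a positive and 3 a negative log2 fold change, with a median of −0.0135 beside 0.0015 for all tested genes. The median with it was −0.058.

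Antisense and other genes overlap several of these loci in GENCODE 29 on GRCh38, and whether reads were counted by strand is not stated, so reads of overlapping genes may have been shared between them. *ELF3* (ENSG00000163435) lies at 1:202007945-202017188 on the plus strand, and *ELF3-AS1* on the opposite strand measured 2.88, 2.23 and 3.48 TPM in Control and 2.17, 2.51 and 1.49 in Amuc_0904, far below *ELF3*. *PROX1* (ENSG00000117707) lies at 1:213983181-214041502 on the plus strand. Its antisense gene *PROX1-AS1* measured 1.63, 0.83 and 0.70 TPM in Control and 1.20, 0.40 and 0.33 in Amuc_0904, above *PROX1* in 2 libraries and below it in the others, so the low *PROX1* values are uncertain. *GATA6* (ENSG00000141448) lies at 18:22169443-22202528 on the plus strand, and *GATA6-AS1* measured 3.55, 3.86 and 2.89 TPM in Control and 4.80, 3.34 and 3.18 in Amuc_0904. *HNF4A* (ENSG00000101076) lies at 20:44355700-44434596 on the plus strand, and *HNF4A-AS1* was listed at 0 in all 6 libraries. No overlapping gene was found for *KLF5* (ENSG00000102554, 13:73054976-73077542, plus), *CDX1* (ENSG00000113722, 5:150166795-150184558, plus), *CDX2* (ENSG00000165556, 13:27962137-27971139, minus) or *HNF4G* (ENSG00000164749, 8:75407914-75566843, plus).

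The genes that these factors are known to drive were read from a list of 40 intestinal genes, of which 18 passed the filter and 21 stayed under 1 TPM in all 6 libraries, 5 of them listed at 0 throughout. The labels call these cells enterocytes from colon. Several genes of absorptive enterocytes were at or near 0. Sucrase-isomaltase (*SI*) stood at 0 to 0.17 TPM, lactase (*LCT*) at 0 to 0.01 and intestinal alkaline phosphatase (*ALPI*) at 0 to 0.03. *FABP2*, *APOA4* and *APOB* were listed at 0. *CDH17*, the intestinal cadherin and a known CDX2 target, measured 0.49 to 0.68 TPM, and *GUCY2C*, another CDX2 target, 0.01 to 0.05. The colonic carbonic anhydrase *CA1* was listed at 0. In contrast, the microvillus protein villin (*VIL1*) stood at 63.6 ± 4.01 TPM in Control, the lectin *LGALS4* at 782.1 ± 6.22, the keratin *KRT20* at 127.0 ± 3.01 and the fatty acid carrier *FABP1* at 124.7 ± 7.33 (SD, n = 3 each). *USH1C*, *PLS1*, *CA2*, *DPP4* and *CDHR5* of the same list were also expressed, at Control means of 66.56, 52.43, 43.81, 38.24 and 16.15 TPM. These genes were picked after their values were seen. Epithelial identity itself was clear, with *EPCAM* at 545.78 to 621.29 TPM and *KRT8* at 2682.19 to 3291.38 TPM over the 6 libraries.

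Of the 18 tested target genes 0 were called in either direction, with a median log2 fold change of 0.025. *CLDN2*, a pore-forming claudin that CDX2 is known to activate, came closest. It measured 54.73, 55.16 and 58.09 TPM in Control and 70.16, 76.20 and 75.53 TPM in Amuc_0904. The groups did not overlap and replicate 1 was again the nearest to the controls. The log2 fold change was 0.39 (95% interval 0.27 to 0.52) at a limma adjusted p of 0.0553, and 0.43 at 0.00248 without Amuc_0904 replicate 1. *CLDN2* passed the threshold in 3 of 15 alternatives. *LGALS4* measured 782.1 ± 6.22 TPM in Control and 848.7 ± 26.2 in Amuc_0904 (adjusted p = 0.273), and *ESPN*, an actin bundler of microvilli, 8.53 ± 0.742 and 6.25 ± 1.30 (adjusted p = 0.273). At an unadjusted p under 0.05, 3 target genes were higher (*CLDN2*, *LGALS4* and *FABP1*, the last named after its values were seen) and 1, *ESPN*, was lower, beside the 9.95% and 5.87% of all tested genes given above.

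Without Amuc_0904 replicate 1, 3 of the 18 target genes were called higher and 3 lower, where 9.34% and 8.85% of all tested genes were. *CLDN2*, *LGALS4* and *KRT20* were higher, with log2 fold changes of 0.43, 0.14 and 0.24 and limma adjusted p values of 0.00248, 0.00929 and 0.00729. The peptidase *DPP4*, the membrane mucin *MUC13* and the tetraspanin relative *TM4SF4* were lower, with log2 fold changes of −0.40, −0.16 and −0.24 and adjusted p values of 0.00572, 0.0398 and 0.0172. *KRT20*, *DPP4*, *MUC13* and *TM4SF4* were picked out here after their values were seen.

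The other transcription factors of the intestine formed a list of 32 genes with 22 tested, of which 0 were called and the median log2 fold change was −0.014. At an unadjusted p under 0.05 *PPARG* and *KLF4* were higher and 0 were lower, a share of 22 genes near the 9.95% of all tested genes. *PPARG*, a nuclear receptor of the colonic epithelium, measured 92.58, 89.75 and 92.98 TPM in Control and 98.55, 104.10 and 100.91 TPM in Amuc_0904. Its groups did not overlap, its log2 fold change was 0.14 (adjusted p = 0.258), and without Amuc_0904 replicate 1 it was 0.16 (adjusted p = 0.0300). *KLF4*, a factor of goblet cells, measured 7.64, 7.55 and 6.70 TPM in Control and 9.38, 8.93 and 8.18 in Amuc_0904. It too did not overlap, at 0.24 on the log2 scale and a limma adjusted p of 0.273, and it passed in none of 15 alternatives. *FOXA3* measured 8.10 ± 0.498 and 9.32 ± 0.690 TPM (adjusted p = 0.362). Without Amuc_0904 replicate 1, *PPARG* was called higher and *FOXA1* and *NR1H4* were called lower. The log2 fold changes of *FOXA1* and *NR1H4* were −0.20 and −0.64, at limma adjusted p values of 0.0318 and 0.0388. Both were named after their values were seen. In that fit 9.34% of all tested genes were called higher and 8.85% lower.

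Relatives of the 8 factors by sequence formed a list of 32 genes with 24 tested, and again 0 were called, with a median of 0.0050. *EHF*, a close relative of *ELF3*, was more abundant than *ELF3*, at 231.3 ± 1.07 TPM in Control and 227.1 ± 7.58 in Amuc_0904 (limma adjusted p = 0.805). *KLF16* measured 9.46 ± 0.388 and 11.6 ± 0.872 TPM (adjusted p = 0.243), and *KLF13* 38.5 ± 3.12 and 32.7 ± 1.08 (adjusted p = 0.247), both with groups that did not overlap. At an unadjusted p under 0.05 *KLF16*, *KLF4* and *SPDEF* were higher and *KLF13* was lower, of 24 genes, against 9.95% and 5.87% over all tested genes. *SPDEF*, an ETS factor of goblet cells named here after its values were seen, measured 8.50, 9.33 and 8.13 TPM in Control and 8.92, 12.16 and 12.46 in Amuc_0904. Replicate 1 lay among the controls and replicates 2 and 3 above them. Its log2 fold change was 0.32 (limma adjusted p = 0.300) with all libraries and 0.47 (adjusted p = 0.0128) without Amuc_0904 replicate 1. There *GATA2* was called lower at −0.30 (adjusted p = 0.0103), where 9.34% of all tested genes were called higher and 8.85% lower.

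Stem cell and Wnt target genes, to which *PROX1* is linked in tumours, numbered 21 with 15 tested, 0 called and a median log2 fold change of 0.0055. At an unadjusted p under 0.05 *MYC* was higher and *LRIG1* was lower, of 15 genes, against 9.95% and 5.87% over all tested genes. *MYC* measured 75.71, 81.43 and 76.31 TPM in Control and 91.53, 107.44 and 106.56 TPM in Amuc_0904, with no overlap between groups and a difference of 0.38 on the log2 scale (adjusted p = 0.157). With Amuc_0904 replicate 1 left out it was 0.46 at an adjusted p of 0.00236. *LRIG1*, a stem cell marker that restrains growth factor receptors, measured 12.0 ± 1.94 and 7.99 ± 2.60 TPM (adjusted p = 0.280), and −0.78 on the log2 scale at an adjusted p of 0.0138 without that library. *CCND1* was the other gene called lower there, at −0.29 (adjusted p = 0.0280), and was named after its values were seen. In that fit 9.34% of all tested genes were called higher and 8.85% lower. *SP5* measured 3.56 ± 0.528 and 4.92 ± 1.23 TPM (adjusted p = 0.342). The feedback regulators *AXIN2* and *RNF43* and the stem cell receptor *LGR5* had adjusted p values of 0.559, 0.420 and 0.965.

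**Figure D4:**
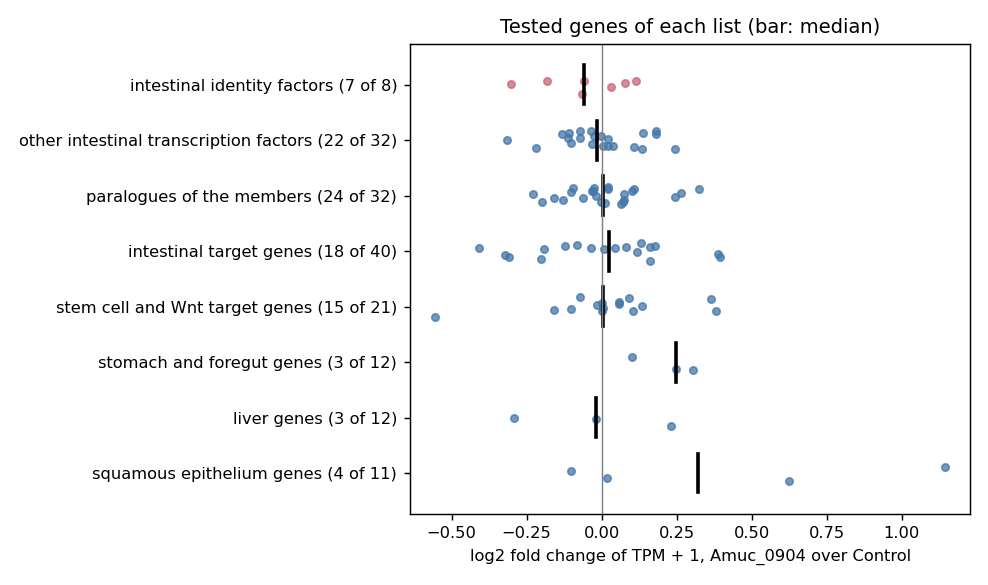
Log2 fold change of TPM + 1, Amuc_0904 over Control (horizontal axis), of each tested gene of the intestinal identity factors (red) and of 7 lists (blue), with a bar at each median and the number tested of the number listed. The medians of the 4 lists with 15 or more tested genes lay between −0.014 and 0.025, and 0 genes of any list were called.

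Loss of intestinal factors is known to let genes of neighbouring tissues appear, so lists for these tissues were read beside the factors. Stomach and foregut genes numbered 12 with 3 tested and 8 under 1 TPM throughout, and their summed TPM was 93.0 to 96.4 in Control and 104.3 to 125.1 in Amuc_0904. Nearly all of it was *ANXA10*, at 87.9 ± 1.90 and 109.2 ± 10.6 TPM. Its log2 fold change was 0.31 at an adjusted p of 0.229, and 0.39 when Amuc_0904 replicate 1 was left out (adjusted p = 0.00241). The defining stomach genes *CLDN18*, *GKN1* and *GAST* were at 0.03 TPM or less. *PGC* of the same list, not tested, measured 0.64, 1.84 and 0.17 TPM in Control and 0.14, 0.09 and 0.69 in Amuc_0904. *TFF1* and *MUC5AC* stood at 4.05 and 1.45 TPM in Control, with adjusted p values of 0.444 and 0.764.

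Squamous genes numbered 11 with 4 tested and 7 under 1 TPM throughout, and the defining genes *TP63*, *KRT5* and *KRT14* stayed at 0.19 TPM or less. *KRT13* measured 3.95, 4.09 and 4.20 TPM in Control and 4.66, 7.56 and 8.93 in Amuc_0904, and *SPRR3* 1.40, 1.22 and 0.89 against 1.53, 6.12 and 5.03. Both lay higher in each Amuc_0904 library than in any control, with replicate 1 close to the controls. Their log2 fold changes were 0.63 and 1.14 (limma adjusted p = 0.249 and 0.251), and 0.86 and 1.60 (adjusted p = 0.00377 and 0.00238) without Amuc_0904 replicate 1. *TRIM29* measured 69.1 ± 3.99 and 64.4 ± 6.98 TPM (adjusted p = 0.590). *IVL*, the remaining tested gene, measured 4.39 ± 0.31 TPM in Control and 4.47 ± 0.47 in Amuc_0904. Its log2 fold change was 0.018 (limma adjusted p = 0.952), and −0.049 without Amuc_0904 replicate 1.

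Liver genes, of which HNF4A is a known activator, numbered 12 with 3 tested and 9 under 1 TPM throughout. *SERPINA1* measured 650.3 ± 13.7 and 642.6 ± 55.3 TPM (adjusted p = 0.908), while albumin (*ALB*) and *AFP* were listed at 0. *APOH* measured 54.0 ± 1.502 and 44.1 ± 5.29 TPM, and its groups did not overlap. Its log2 fold change was −0.29 at an adjusted p of 0.238, and −0.38 when Amuc_0904 replicate 1 was left out (adjusted p = 0.00512). *TTR* measured 2.90 ± 0.991 and 3.49 ± 0.146 TPM (adjusted p = 0.549). In the stomach, squamous and liver lists limma called 0 genes with all libraries, and at an unadjusted p under 0.05 *ANXA10*, *KRT13* and *SPRR3* were higher and *APOH* was lower (9.95% and 5.87% over all tested genes). The median log2 fold changes were 0.25, 0.32 and −0.020 over the 3, 4 and 3 tested genes.

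Markers of other cells were read for the same libraries. Of 11 epithelial and colonic markers 10 were tested and 0 called, and their summed TPM was 7136 to 7181 in Control and 7150, 7981 and 7977 in Amuc_0904. *KRT8* measured 2726 ± 53.1 and 3095 ± 287 TPM (adjusted p = 0.293) and *CEACAM5* 1.38 ± 0.237 and 2.76 ± 1.10 (adjusted p = 0.273). Without Amuc_0904 replicate 1, 5 of these markers were called higher (*KRT8*, *KRT18*, *KRT20*, *LGALS4* and *CEACAM5*) and 2 lower (*EPCAM* and *CDH1*). Shares of 9.34% higher and 8.85% lower were called in that fit over all tested genes. With all 6 libraries the unadjusted p lay under 0.05 for *KRT8*, *LGALS4* and *CEACAM5*, each of them higher. Of the leukocyte markers *CD14* passed this limit and was lower, and of the fibroblast and endothelial markers 0 passed in either direction. Among all tested genes 9.95% passed it as higher and 5.87% as lower. The part of these markers in the *ELF3* difference was not tested. Of 8 leukocyte markers 4 were tested and 0 called, with *PTPRC* at 0 to 0.02 TPM and *CD3E* listed at 0. Their summed TPM of 2491 to 2710 was nearly all *LYZ*, the lysozyme that Paneth cells also make, at 2595 ± 24.4 and 2620 ± 127. *CD14* measured 4.72 ± 0.0586 and 2.51 ± 0.538 TPM (adjusted p = 0.150, and 0.0153 without Amuc_0904 replicate 1), and *CD68* 10.7 ± 2.69 and 9.65 ± 2.07 (adjusted p = 0.772). Of 10 fibroblast and endothelial markers 3 were tested and 0 called, with a summed TPM of 3.41 to 4.34, *COL1A2* and *CDH5* listed at 0, and *PECAM1*, *COL1A1* and *LUM* at adjusted p values of 0.852, 0.870 and 0.922.

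Companion genes with profiles most like each factor were found by the mean, over the 6 libraries, of the absolute difference between log2(TPM + 1) values taken from the control mean. For *ELF3* these were the nuclear receptor *NR5A2*, at 0.034, and *KLF12*, at 0.054, against a median of 0.14 over the 95 tested companion genes. *PROX1* was nearest to *APOH* (0.022) and *GATA2* (0.056), with a median of 0.19. *KLF5* was nearest to *ELF4* (0.025) and *KLF10* (0.026), and *HNF4A* to *LGALS4* (0.032) and *KLF10* (0.037), with medians of 0.10 and 0.13. *HNF4G* was nearest to *ELF1* (0.027) and *ELF2* (0.030), and *GATA6* to *EPCAM* (0.018) and *ELF2* (0.027), with medians of 0.11 and 0.12. *CDX2* had no near neighbour, at 0.20 for *PECAM1* and 0.27 for *KLF13* against a median of 0.35. These distances describe 6 libraries only, and include the spread of low values.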

How the data were processed

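RNA was sequenced from 3 Control and 3 Amuc_0904 libraries of HT-29 cells. The authors trimmed reads with SeqPrep and Sickle, aligned them with HISAT2 and assembled transcripts with StringTie, and the submitters' processing notes also name RSEM and edgeR, none with a version. The deposited values are TPM per gene, and each library sums to about 1000000. The notes name the mouse build GRCm38.p6, whereas the gene identifiers are human Ensembl ones, so the human build is not given in the sources used here. Neither read counts nor depth can be had from TPM, so counting error is unknown. The study's dose and time are those of its methods.

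A total of 14333 genes reached 1 TPM in 3 or more libraries. These were fitted on log2(TPM + 1) against condition in limma 3.58.1 (R 4.3.3), with its trend and robust options, and Benjamini-Hochberg adjustment ran over all of them. A fold change on this scale understates the change of low genes. With 3 libraries a group, an exact two-sided permutation p is at least 0.1, so none was computed. A further 25 lines of the table without gene values were left out.

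The 8 factors and the 10 companion lists (174 genes, 95 tested) were chosen with earlier results of these data known. Named genes are all factors, called list members, the 3 list members with the smallest p, and the 2 nearest profiles per factor. Other genes are named as markers or relatives, or were picked after their values were seen. Alternatives changed the pseudocount (0.1 and 0.5), filter, scaling, library weights, empirical Bayes options, a replicate block and the libraries left out. Some list members are not reported here. Promoter sequences are from RefSeq (GRCh38.p14) and gene positions from GENCODE 29.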

Additional observations from a re-analysis of the deposited data

How the results depend on the processing

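Over 15 alternatives, 94 of 103 values for the factors kept their direction and their side of the threshold. Both numbers include 14 values of *PROX1*, whose sign the filter fixed, so that its kept direction says nothing of stability. Limma's array weights gave Amuc_0904 replicate 1 a weight of 0.224 and the others 1.26 to 1.49. With all 6 libraries weighted in this way, 1 factor was called lower (*ELF3*, log2 fold change −0.22). Of the 95 tested companion genes 12 were called higher and 6 lower. Under a mean of at least 5 TPM 1 companion gene was called higher, and the median of the factors was 0.031, over 5 factors. The share of all tested genes called was counted in neither of these fits, so their counts cannot be set against a background. With each library left out in turn, 0 to 1 factors were called lower, 0 to 12 companion genes higher and 0 to 12 lower, and the median of the factors ran from −0.085 to 0.039. The upper counts were those without Amuc_0904 replicate 1, where *ELF3* was at −0.23. There 9.34% of all tested genes were called higher and 8.85% lower. The sign turned for *CDX2* (0.079 with array weights, −0.31 to 0.11 with libraries left out) and *HNF4G* (−0.038 with array weights, −0.057 to 0.083). The cause was not tested. Same-numbered libraries did not deviate together (correlations of 0.046, −0.039 and −0.0047), and a fit with a replicate block called 0 factors, with *ELF3* at an adjusted p of 0.334. Adjusted p for *ELF3* ran from 0.00597 to 0.584 over the alternatives. *CDX1*, *CDX2* and *PROX1* lie at about 1 TPM, where unknown depth limits what can be seen.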
